A study of Arabidopsis thaliana with 30 samples.

Results

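The genes described here are 32 SAUR (small auxin up RNA) genes of Arabidopsis thaliana that lie side by side in 6 clusters on the chromosomes, out of 80 SAUR genes in the annotation. Membership goes by locus identifier, from the position in these clusters, and uses no measured value, but the clusters were picked for description with earlier results of these data known. Of the 32 genes, 23 stand in at least 1 of the 5 deposited tables and 9 in none, while the 5 tables together list 6297 genes. A table holds, for 1 plant line, the genes that the authors called changed by antimycin A, so a gene without a row is unlisted, which does not show that it was unchanged.

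Whole seedlings of 5 plant lines were treated with antimycin A (AA) or kept as mock control (CK), and RNA from 3 samples of each line and treatment was sequenced, giving 30 libraries. Antimycin A blocks complex III of the mitochondrial electron transport chain. Seedlings of all lines were 10 days old, grew on MS agar medium with sucrose and were moved to liquid MS medium, where the AA groups had 50 µM of the agent for 5 h. The lines were snrk1a-2, a mutant of the energy-sensing protein kinase SnRK1a (KIN10), jmj15-2, a mutant of the histone demethylase JMJ15, crf6-2, a mutant of the cytokinin response factor CRF6, SnRK1aOX, which overexpresses SnRK1a, and wild type Col-0 (WT). Each line was compared with AA against its own CK libraries. The labels give neither the promoter of the overexpression construct nor whether SnRK1aOX is 1 transformed line. No label says whether the triplicates were grown separately. The p-values therefore measure the spread between these libraries and no more, and that spread may be technical. The genes KIN10, KIN11, JMJ15 and CRF6 are listed in 0 of the tables, so the line labels could not be checked against them. Values of snrk1a-2 and SnRK1aOX come from tables whose columns are named kin10-2 and KIN10V17, which were matched to these lines by name alone, and the labels do not state that match.

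SAUR genes are among the earliest transcripts that auxin induces, and many are also controlled by light, temperature, brassinosteroids and gibberellin. Their small proteins bind and inhibit phosphatases of the PP2C.D group. These phosphatases switch off plasma membrane proton ATPases, so SAUR proteins keep the pumps active, which acidifies the cell wall and lets cells expand. Tandem duplication contributed to the clusters, and neighbours in a cluster can be close copies.

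The coding sequence of each of the 32 genes lay in 1 exon in the RefSeq annotation of build TAIR10.1, from which all coordinates here come. The encoded proteins had 86 to 186 residues, with a median of 103. The closest copies were on chromosome 5, where SAUR19 to SAUR24, known to promote hypocotyl growth, shared 89.0% to 95.6% of their residues and 87.7% to 95.2% of their coding bases. The first 54 coding bases of these 6 genes are shown because reads from them could be assigned to the wrong copy, and capitals mark the 8 positions at which the 6 copies are not all alike. SAUR19 lies at chr5:5963252-5963305, minus strand for these bases, SAUR20 at chr5:5966527-5966580, minus strand, SAUR21 at chr5:5968527-5968580, plus strand, SAUR22 at chr5:5974910-5974963, minus strand, SAUR23 at chr5:5976030-5976083, plus strand and SAUR24 at chr5:5983840-5983893, plus strand.
SAUR19: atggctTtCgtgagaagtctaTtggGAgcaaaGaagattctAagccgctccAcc
SAUR20: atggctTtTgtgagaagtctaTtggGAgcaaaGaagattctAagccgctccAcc
SAUR21: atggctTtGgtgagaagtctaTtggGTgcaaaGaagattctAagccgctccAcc
SAUR22: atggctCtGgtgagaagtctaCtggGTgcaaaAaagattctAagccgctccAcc
SAUR23: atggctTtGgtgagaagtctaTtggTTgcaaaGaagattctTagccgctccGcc
SAUR24: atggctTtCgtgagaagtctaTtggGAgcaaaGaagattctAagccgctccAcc
Over these bases SAUR19 and SAUR24 were identical. Values of these 6 genes are therefore uncertain as to the copy, because neither strand nor the handling of shared reads is given in the sources used here. In the other 5 clusters the highest protein identity between genes of a cluster was 86.6% on chromosome 1 and lower elsewhere. It ran from 28.4% to 40.6% on chromosome 2 and from 24.5% to 59.7% in AT4G34750 to AT4G34810. Some genes had their nearest relative outside their own cluster, such as SAUR12, nearest to SAUR16.

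The 250 bases before the annotated start are shown for 4 genes, namely SAUR16 and SAUR50, listed in all 5 tables, SAUR12, their close relative, and SAUR20. SAUR20 holds motifs of both kinds found most often, as does SAUR22, which is not shown. Capitals mark a motif, and the windows, read 5′ to 3′ on the strand of the gene, overlap no other annotated gene. They lie at chr4:18129987-18130236, plus strand for SAUR16, chr4:16583076-16583325, minus strand for SAUR50, chr2:9088976-9089225, plus strand for SAUR12 and chr5:5966786-5967035, minus strand for SAUR20.
SAUR16: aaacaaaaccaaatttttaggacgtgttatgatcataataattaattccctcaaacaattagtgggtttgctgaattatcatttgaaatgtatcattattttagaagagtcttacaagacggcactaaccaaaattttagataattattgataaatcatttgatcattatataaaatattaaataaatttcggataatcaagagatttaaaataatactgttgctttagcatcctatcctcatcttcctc
SAUR50: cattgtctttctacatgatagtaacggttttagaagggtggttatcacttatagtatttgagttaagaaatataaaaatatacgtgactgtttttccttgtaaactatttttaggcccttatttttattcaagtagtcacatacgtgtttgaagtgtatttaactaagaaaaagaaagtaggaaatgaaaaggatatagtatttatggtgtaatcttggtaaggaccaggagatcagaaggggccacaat
SAUR12: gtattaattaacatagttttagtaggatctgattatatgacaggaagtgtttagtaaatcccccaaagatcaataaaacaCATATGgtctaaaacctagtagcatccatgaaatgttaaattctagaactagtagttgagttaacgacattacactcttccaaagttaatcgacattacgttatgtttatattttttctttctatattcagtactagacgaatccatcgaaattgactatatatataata
SAUR20: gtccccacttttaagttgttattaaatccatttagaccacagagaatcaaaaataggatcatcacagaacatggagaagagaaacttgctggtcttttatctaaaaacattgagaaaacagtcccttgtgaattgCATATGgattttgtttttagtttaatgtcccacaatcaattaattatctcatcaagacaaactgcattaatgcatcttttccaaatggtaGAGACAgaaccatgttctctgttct
The 5 motifs were searched on both strands, each spelt out with its share. TGTCTC, the auxin response element bound by auxin response factors, occurred in 7 of 32 windows (21.9%), against 10.9% of 27443 windows of the same length before annotated protein-coding genes. CATATG, an E-box, occurred in 8 of 32 (25.0%), against 7.12% of all windows. TGTCGG, the other auxin response element, occurred in 2 (6.25%), against 4.16% of all windows. GGTCCCAT, an element known from a soybean SAUR promoter, occurred in 1 (3.12%), against 0.404% of all windows, and CACGTG, the G-box bound by PIF proteins, in 0, against 6.49% of all windows. Some of these motifs can share bases when both strands are read, and 17 windows held none of the 5 motifs. SAUR16 and SAUR50 were among those 17, while SAUR12 held CATATG 170 bases before its start. In SAUR20, TGTCTC (on the opposite strand, printed as GAGACA) began 25 bases and CATATG 115 bases before the start. TGTCTC occurred in 5 of the 23 genes listed in a table and in 2 of the 9 unlisted ones, and CATATG in 6 of 23 and 2 of 9. A match describes these letters and is not a measured binding site.

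With antimycin A, SAUR cluster genes were listed with lower transcript levels in all 5 lines. The count was 17 of 32 genes (53.1%) in snrk1a-2, against 10.1% of all genes the authors tested in that line. It was 6 of 32 (18.8%) in jmj15-2, against 6.04% of all genes, and 6 of 32 (18.8%) in crf6-2, against 7.71% of all genes. SnRK1aOX had 3 of 32 (9.38%), against 3.67% of all genes, and WT had 15 of 32 (46.9%), against 8.84% of all genes. A single gene, SAUR61 in crf6-2, was listed as higher (3.12% of the 32), against 6.97% of all genes in that line. In the other lines 0 of the 32 were listed higher, against 7.17% of all genes in snrk1a-2, 6.62% in jmj15-2, 5.55% in SnRK1aOX and 5.83% in WT. Of 48 listings over the 5 tables, 47 were of lower levels. A listing means that the authors' q was under 0.05 and their absolute log2 fold change over 1. In whole seedlings, fewer cells of a type and less RNA per cell cannot be told apart.

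**Figure D1:**
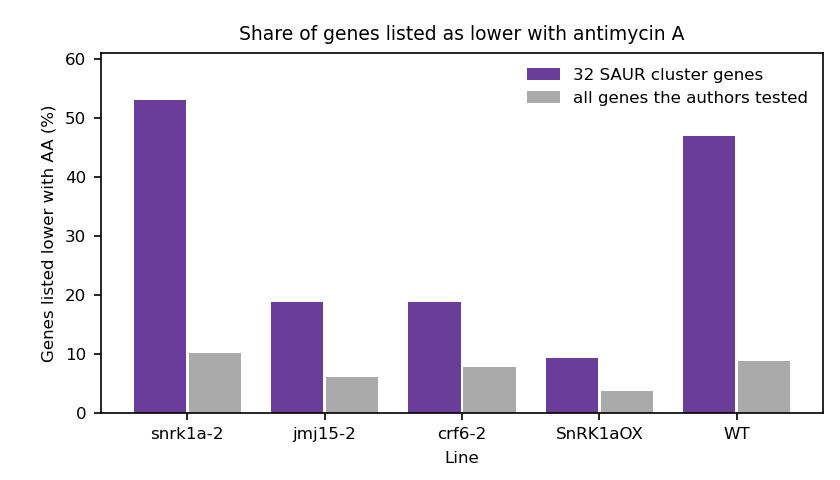
Bars give the percentage of genes that the authors listed as lower with antimycin A (vertical axis) in each line, for the 32 SAUR cluster genes and for all genes the authors tested. The bars of the SAUR genes stand at 53.1% in snrk1a-2, 18.8% in jmj15-2 and crf6-2, 9.38% in SnRK1aOX and 46.9% in WT, each above the bar of all genes.

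Levels are the normalised read counts that the authors deposited, whose low values are not whole multiples of 1 step per library, so they carry an adjustment beyond depth that is not described in the sources used here. The level left with antimycin A was 18.7% to 49.5% of the CK mean for the genes listed lower in snrk1a-2, 26.3% to 49.5% in jmj15-2, 29.1% to 47.5% in crf6-2, 36.9% to 46.7% in SnRK1aOX and 14.3% to 47.1% in WT. All 3 AA libraries lay below every CK library for all of these 47 listings. That absence of overlap is common among listed genes, since it held for 96.8% of all genes listed lower in snrk1a-2, 93.4% in jmj15-2, 90.5% in crf6-2, 93.1% in SnRK1aOX and 93.9% in WT. By fold change, the listings nearest to the limit of the authors' call were SAUR29 in jmj15-2, SAUR14 in snrk1a-2 and SAUR23 in snrk1a-2, with log2 fold changes of -1.01, -1.01 and -1.02 in the authors' deposited tables. By q they were SAUR12 in SnRK1aOX, SAUR4 in crf6-2 and SAUR61 in crf6-2, with q-values of 0.0467, 0.0454 and 0.0433 in the authors' deposited tables.

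Every one of the 6 clusters had genes listed lower in snrk1a-2 and in WT. On chromosome 4, the cluster AT4G34750 to AT4G34810 had 3 of its 7 genes listed lower in snrk1a-2, 1 in jmj15-2, 3 in crf6-2, 1 in SnRK1aOX and 4 in WT. The other cluster on that chromosome, AT4G38825 to AT4G38860, had 3 of 4 in snrk1a-2, 1 in each of jmj15-2, crf6-2 and SnRK1aOX, and 2 in WT. The chromosome 2 cluster, AT2G21200 to AT2G21220, had 1 of 3 in snrk1a-2 and SnRK1aOX and 2 in jmj15-2, crf6-2 and WT. All 4 genes of the chromosome 3 cluster, AT3G03820 to AT3G03850, were listed lower in snrk1a-2, 1 in jmj15-2, 0 in crf6-2 and SnRK1aOX, and 2 in WT. On chromosome 5, AT5G18010 to AT5G18080, the counts were 4 of 6 in snrk1a-2, 1 in jmj15-2, 0 in crf6-2 and SnRK1aOX, and 3 in WT. The chromosome 1 cluster, AT1G29420 to AT1G29510, had the fewest for its size, with 2 of 8 listed lower in snrk1a-2 and in WT, 1 listed higher in crf6-2, and 0 in jmj15-2 and SnRK1aOX. The 9 genes in no table were SAUR63, SAUR64, SAUR65, SAUR66 and SAUR67 of chromosome 1, SAUR2, SAUR5 and SAUR13 of chromosome 4 and SAUR21 of chromosome 5.

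**Figure D2:**
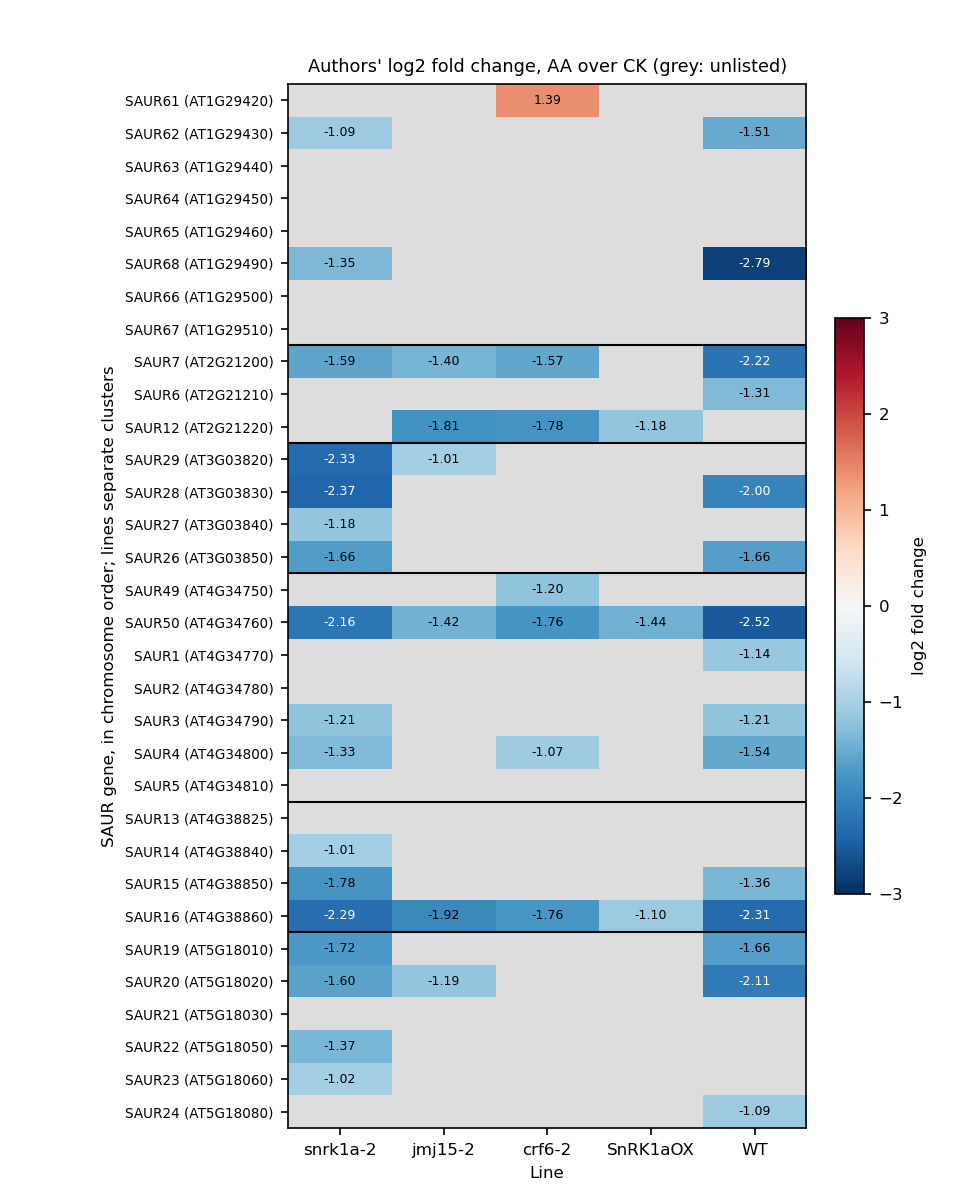
Each cell gives the log2 fold change of AA over CK from the authors' deposited tables for 1 of the 32 SAUR genes (rows, in chromosome order, black lines between clusters) in 1 line (columns), and grey cells are unlisted. Blue cells fill all 5 columns for SAUR50 and SAUR16, and the single red cell is SAUR61 in crf6-2, at 1.39.

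SAUR16 (AT4G38860, chr4:18130237-18131284, plus strand), which with SAUR50 takes part in light-driven opening of cotyledons, was listed lower in all 5 tables. Its normalised read counts were 114, 212 and 101 in snrk1a-2 AA libraries, against 709, 731 and 658 in snrk1a-2 CK libraries. They were 152, 74.1 and 141 in jmj15-2 AA libraries, against 464, 419.6 and 509 in jmj15-2 CK libraries. They were 208, 98.9 and 102 in crf6-2 AA libraries, against 547, 421 and 417 in crf6-2 CK libraries. In these lines every AA library was below every CK library, with 1 AA library of snrk1a-2 and 1 of crf6-2 higher than the other 2. The counts were 175, 204 and 152 in SnRK1aOX AA libraries, against 371, 344 and 423 in SnRK1aOX CK libraries. They were 137, 85.4 and 143 in WT AA libraries, against 445, 691 and 673 in WT CK libraries. The AA levels of SnRK1aOX were higher and its CK levels lower than the means of WT, but levels of separately normalised tables were not tested against each other. The authors' deposited tables gave log2 fold changes of -2.29 in snrk1a-2, -1.92 in jmj15-2, -1.76 in crf6-2, -1.10 in SnRK1aOX and -2.31 in WT. A refit with limma on log2(value + 1), with Benjamini-Hochberg adjustment, gave changes of -2.36 ± 0.29 (adjusted p = 0.000553) in snrk1a-2, -1.98 ± 0.29 (adjusted p = 0.00267) in jmj15-2, -1.83 ± 0.32 (adjusted p = 0.00589) in crf6-2, -1.10 ± 0.21 (adjusted p = 0.0214) in SnRK1aOX and -2.31 ± 0.28 (adjusted p = 0.000667) in WT (± SE, n = 3 per group). The change in SnRK1aOX lost its call when any of the AA replicates 1, 2 or 3 or CK replicate 1 or 3 was left out, with an adjusted p of up to 0.104 by limma.

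SAUR50 (AT4G34760, chr4:16582183-16583075, minus strand) was the other gene listed lower in all 5 tables. Normalised read counts of SAUR50 were 114, 135 and 153 in snrk1a-2 AA libraries, against 598, 647 and 554 in snrk1a-2 CK libraries. The values were 156, 125 and 172 in jmj15-2 AA libraries, against 371, 376 and 469 in jmj15-2 CK libraries. In crf6-2 they were 175, 154 and 99.2 in crf6-2 AA libraries, against 561, 477 and 414 in crf6-2 CK libraries. The AA and CK libraries of these 3 lines stood apart without overlap. Counts were 117, 147 and 107 in SnRK1aOX AA libraries, against 349, 365 and 295 in SnRK1aOX CK libraries. For WT they were 106, 67.9 and 121 in WT AA libraries, against 413, 679.5 and 597 in WT CK libraries. The groups were apart in these lines too, and the fall was largest in WT among the 5 lines. Log2 fold changes in the authors' deposited tables were -2.16 in snrk1a-2, -1.42 in jmj15-2, -1.76 in crf6-2, -1.44 in SnRK1aOX and -2.52 in WT. By the limma refit the changes were -2.16 ± 0.21 (adjusted p = 0.000305) in snrk1a-2, -1.42 ± 0.21 (adjusted p = 0.00277) in jmj15-2, -1.78 ± 0.26 (adjusted p = 0.00258) in crf6-2, -1.44 ± 0.23 (adjusted p = 0.00959) in SnRK1aOX and -2.52 ± 0.29 (adjusted p = 0.000579) in WT, and every one kept its call whichever library was left out.

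**Figure D3:**
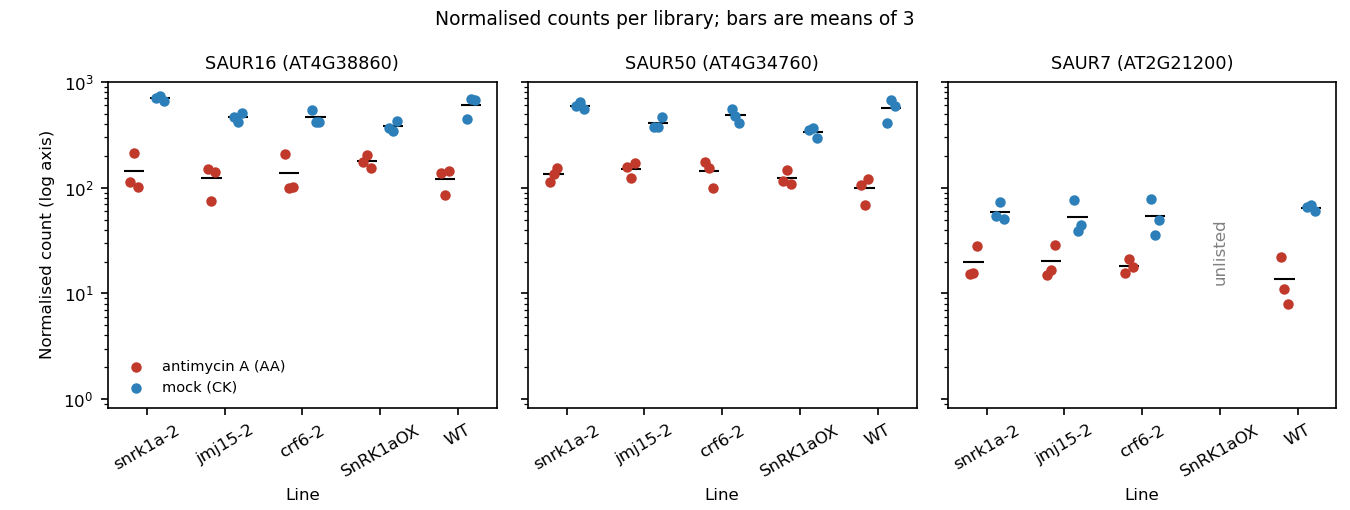
Points are normalised read counts (log axis) of SAUR16, SAUR50 and SAUR7 in each of 3 AA and 3 CK libraries of each line, and black bars are group means. The AA points lie below the CK points of the same line in every panel, and SAUR7 has no points in SnRK1aOX, where it is unlisted.

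SAUR7 (AT2G21200, chr2:9083906-9084803, minus strand), on chromosome 2, was listed lower in 4 tables and unlisted in SnRK1aOX. Normalised read counts were 15.1, 15.5 and 28.2 in snrk1a-2 AA libraries, against 54.1, 72.7 and 50.7 in snrk1a-2 CK libraries. They were 14.8, 16.8 and 28.6 in jmj15-2 AA libraries, against 76.3, 39.2 and 44.6 in jmj15-2 CK libraries. In crf6-2 there were 15.7, 21.1 and 17.96 in crf6-2 AA libraries, against 78.1, 36.04 and 48.97 in crf6-2 CK libraries. CK replicate 1 was the highest library of both jmj15-2 and crf6-2, and the groups did not overlap. The counts were 22.3, 10.99 and 7.97 in WT AA libraries, against 65.6, 67.95 and 60.2 in WT CK libraries. In WT the CK libraries lay close together, and AA replicate 1 was above the other AA libraries. Authors' deposited tables held log2 fold changes of -1.59 in snrk1a-2, -1.40 in jmj15-2, -1.57 in crf6-2 and -2.22 in WT. The limma refit gave -1.58 ± 0.40 (adjusted p = 0.0249) in snrk1a-2, -1.37 ± 0.45 (adjusted p = 0.136) in jmj15-2, -1.46 ± 0.41 (adjusted p = 0.0628) in crf6-2 and -2.27 ± 0.45 (adjusted p = 0.00897) in WT. In jmj15-2 and crf6-2 the refit did not pass, although it passed in crf6-2 without CK replicate 2 (adjusted p = 0.041 by limma) and without the trend of the variance with level (0.035). In snrk1a-2 the call was lost when any library but AA replicate 3 was left out, with an adjusted p of up to 0.114 by limma. SAUR7 overlaps its neighbour SAUR6 by 176 bases on the same strand, so reads of this stretch could belong to either gene.

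SAUR6 (AT2G21210, chr2:9084628-9086029, minus strand) was listed in WT, where its normalised read counts were 226, 237 and 176 in WT AA libraries, against 413, 571 and 605 in WT CK libraries. All AA libraries were below the CK libraries, and its limma change was -1.30 ± 0.22 (adjusted p = 0.00401). SAUR12 (AT2G21220, chr2:9089226-9090052, plus strand), another gene of this cluster, was picked for description after its values had been seen. It was listed lower in jmj15-2, crf6-2 and SnRK1aOX and unlisted in snrk1a-2 and WT. Normalised read counts of SAUR12 were 16.9, 25.4 and 22.2 in jmj15-2 AA libraries, against 92.9, 84.6 and 50.1 in jmj15-2 CK libraries. Counts in crf6-2 were 41.4, 29.04 and 11.7 in crf6-2 AA libraries, against 107, 101 and 74.7 in crf6-2 CK libraries. They were 36.5, 24.6 and 44.5 in SnRK1aOX AA libraries, against 88.3, 89.9 and 60.9 in SnRK1aOX CK libraries. AA and CK libraries did not overlap in any of the 3 lines, and AA replicate 3 of crf6-2 was the lowest. The authors' deposited tables gave -1.81 in jmj15-2, -1.78 in crf6-2 and -1.18 in SnRK1aOX on the log2 scale. The limma refit gave -1.74 ± 0.40 (adjusted p = 0.0264) in jmj15-2, -1.90 ± 0.48 (adjusted p = 0.0416) in crf6-2 and -1.17 ± 0.35 (adjusted p = 0.142) in SnRK1aOX. The call in jmj15-2 was lost without AA replicate 1, 2 or 3 or CK replicate 1 or 2 (adjusted p up to 0.125 by limma), and that in crf6-2 without AA replicate 2 or 3 or CK replicate 1, 2 or 3 (up to 0.185). Whether the change of SAUR12 in snrk1a-2 or WT was smaller cannot be read from an unlisted gene. In sequence SAUR12 was the nearest relative of SAUR16, with 88.6% identical residues, and the pairs SAUR50 with SAUR16 and SAUR12 with SAUR50 shared 80.6% and 79.4%.

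In the chromosome 5 cluster, SAUR20 (AT5G18020, chr5:5966183-5966785, minus strand) was the gene listed in most tables. Its normalised read counts were 40.2, 50.9 and 73.7 in snrk1a-2 AA libraries, against 97.4, 211 and 195 in snrk1a-2 CK libraries. In jmj15-2 they were 48.3, 54.4 and 44.6 in jmj15-2 AA libraries, against 137, 83.2 and 118 in jmj15-2 CK libraries. They were 44.6, 37.4 and 79.8 in WT AA libraries, against 199, 329 and 173 in WT CK libraries. CK libraries of SAUR20 spread widely, with replicate 1 lowest in snrk1a-2 and replicate 2 highest in WT, yet none reached down to an AA library. The limma refit gave changes of -1.56 ± 0.39 (adjusted p = 0.0215) in snrk1a-2, -1.16 ± 0.31 (adjusted p = 0.062) in jmj15-2 and -2.11 ± 0.38 (adjusted p = 0.00512) in WT. In snrk1a-2 the call was lost without AA replicate 1 or 2 or CK replicate 2 or 3 (adjusted p up to 0.129 by limma), and jmj15-2 passed without CK replicate 2 (0.0481). SAUR19 was listed lower in snrk1a-2 and WT, with limma changes of -1.71 ± 0.31 (adjusted p = 0.00394) in snrk1a-2 and -1.66 ± 0.26 (adjusted p = 0.00233) in WT. SAUR22 and SAUR23 were listed in the table of snrk1a-2 and in no other, with 129 ± 28.1 in snrk1a-2 AA libraries and 333 ± 68.01 in snrk1a-2 CK libraries for SAUR22 (SD, n = 3 each) and 160.0 ± 23.7 in snrk1a-2 AA libraries and 326 ± 59.8 in snrk1a-2 CK libraries for SAUR23 (SD, n = 3 each). SAUR24 was listed in WT, with 100.4 ± 37.01 in WT AA libraries and 213 ± 65.5 in WT CK libraries (SD, n = 3 each), and did not pass the refit (adjusted p = 0.0862 by limma) except without AA replicate 3 (0.049). Which of the 6 near-identical copies was listed differed between the tables of snrk1a-2 and WT, and reads split between copies may bear on it, which was not tested.

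The chromosome 3 genes SAUR26 to SAUR29 belong to a group known for growth responses to warmth. SAUR26 (AT3G03850, chr3:983057-983768, plus strand) had normalised read counts of 22.1, 69.3 and 43.1 in snrk1a-2 AA libraries, against 146, 153 and 130.1 in snrk1a-2 CK libraries. Its counts were 34.5, 47.7 and 37.9 in WT AA libraries, against 128, 149 and 102 in WT CK libraries. AA and CK libraries did not overlap, and the AA libraries of snrk1a-2 were spread more widely than those of WT. The limma changes were -1.79 ± 0.42 (adjusted p = 0.0149) in snrk1a-2 and -1.63 ± 0.31 (adjusted p = 0.00756) in WT, of which that in snrk1a-2 was lost without CK replicate 1, 2 or 3 (adjusted p up to 0.0762 by limma). SAUR28 had the lowest share left in snrk1a-2 among the listed SAUR genes of that line, 18.7% of the CK mean, with 4.12, 5.49 and 22.7 in AA libraries against 57.96, 78.2 and 36.5 in CK libraries. Its limma changes were -2.60 ± 0.62 (adjusted p = 0.0177) in snrk1a-2 and -2.20 ± 0.68 (adjusted p = 0.083) in WT, and that in snrk1a-2 was lost without AA replicate 1 or 2 or CK replicate 1 or 2 (adjusted p up to 0.0994 by limma). SAUR29 had 31.2, 23.03 and 22.7 in snrk1a-2 AA libraries, against 128, 164 and 96.5 in snrk1a-2 CK libraries. In jmj15-2 its counts were 41.97, 40.1 and 44.4 in jmj15-2 AA libraries, against 82.5, 81.7 and 91.1 in jmj15-2 CK libraries. Replicates of SAUR29 in jmj15-2 lay close together around a smaller change, and its limma changes were -2.28 ± 0.35 (adjusted p = 0.00151) in snrk1a-2 and -0.996 ± 0.29 (adjusted p = 0.0896) in jmj15-2. SAUR27 was listed in snrk1a-2, with a limma change of -1.15 ± 0.31 (adjusted p = 0.033) that was lost whichever library was left out (adjusted p up to 0.168).

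On chromosome 1, SAUR62 (AT1G29430, chr1:10302585-10303418, minus strand) belongs to the SAUR63 group, which promotes elongation of hypocotyls and stamen filaments. Its normalised read counts were 154, 175 and 170.2 in snrk1a-2 AA libraries, against 313, 299 and 451 in snrk1a-2 CK libraries. They were 88.3, 70.2 and 173 in WT AA libraries, against 278, 392.5 and 278 in WT CK libraries. The groups did not overlap, and AA replicate 3 of WT was above the other AA libraries of WT. The limma changes were -1.06 ± 0.24 (adjusted p = 0.0128) in snrk1a-2 and -1.59 ± 0.35 (adjusted p = 0.0157) in WT. The call in snrk1a-2 was lost without AA replicate 1 or CK replicate 3 (adjusted p up to 0.0793 by limma) and that in WT without AA replicate 1 or 2 or CK replicate 2 (up to 0.0871). SAUR62 shares 97.0% of its coding bases with SAUR75, a SAUR gene outside the clusters, so its reads may be shared with that gene. SAUR68 kept 38.7% of its CK level in snrk1a-2 and 14.3% in WT, the lowest share of any listed SAUR cluster gene. Its limma changes were -1.37 ± 0.52 (adjusted p = 0.161) in snrk1a-2 and -2.76 ± 0.46 (adjusted p = 0.00337) in WT. SAUR61 (AT1G29420, chr1:10301377-10302099, minus strand), described after its direction had been seen, had 35.5, 43.3 and 20.6 in crf6-2 AA libraries, against 21.5, 9.22 and 6.93 in crf6-2 CK libraries. Here AA replicate 3 lay below CK replicate 1, so the groups overlapped, and the limma change of 1.42 ± 0.53 (adjusted p = 0.204) did not pass. SAUR61 overlaps a long noncoding RNA gene on the opposite strand by 342 bases, and the strand of the libraries is not stated.

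In the first chromosome 4 cluster, SAUR3 and SAUR4 were listed lower in snrk1a-2 and WT. Limma changes of SAUR3 were -1.20 ± 0.29 (adjusted p = 0.0206) in snrk1a-2 and -1.24 ± 0.29 (adjusted p = 0.0229) in WT. SAUR4 was also listed in crf6-2, and its limma changes were -1.31 ± 0.30 (adjusted p = 0.0148) in snrk1a-2, -1.11 ± 0.43 (adjusted p = 0.221) in crf6-2 and -1.51 ± 0.36 (adjusted p = 0.0241) in WT. The passing calls of these 2 genes in snrk1a-2 and WT were lost without 1 library in these cases, with an adjusted p of up to 0.109 by limma: SAUR3 without AA replicate 1 or 3 or CK replicate 2 or 3 of snrk1a-2, or AA replicate 2 or 3 or CK replicate 1, 2 or 3 of WT, and SAUR4 without CK replicate 2 or 3 of snrk1a-2, or AA replicate 1 or 2 or CK replicate 1 or 3 of WT. SAUR1 was listed in WT, with 357, 342 and 371 in WT AA libraries against 694, 962 and 696 in WT CK libraries. Its AA libraries were close together and all below the CK libraries, and the limma change was -1.12 ± 0.18 (adjusted p = 0.00327). SAUR49 (AT4G34750, chr4:16577180-16578452, plus strand), a known promoter of leaf senescence, was listed in crf6-2 and in no other table, and is described after its values had been seen. It had 148, 186 and 128 in crf6-2 AA libraries, against 391, 321 and 353 in crf6-2 CK libraries. The groups stood apart, with a limma change of -1.21 ± 0.22 (adjusted p = 0.00792) that held whichever library was left out. In the second cluster, SAUR15, the gene first known as SAUR-AC1, was listed lower in snrk1a-2 and WT. Counts of SAUR15 were 31.4, 44.9 and 27.5 in snrk1a-2 AA libraries, against 101, 144 and 111 in snrk1a-2 CK libraries. They were 24.4, 12.4 and 63.8 in WT AA libraries, against 90.4, 81.2 and 87.6 in WT CK libraries. AA replicate 3 of WT was again the highest, and the limma changes were -1.76 ± 0.34 (adjusted p = 0.00513) in snrk1a-2 and -1.64 ± 0.54 (adjusted p = 0.113) in WT, with WT passing when AA replicate 3 was left out (adjusted p = 0.0167 by limma). SAUR14 was listed in snrk1a-2, with a limma change of -1.02 ± 0.23 (adjusted p = 0.0116) that was lost without CK replicate 2 or 3 (adjusted p up to 0.0576).

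**Figure D4:**
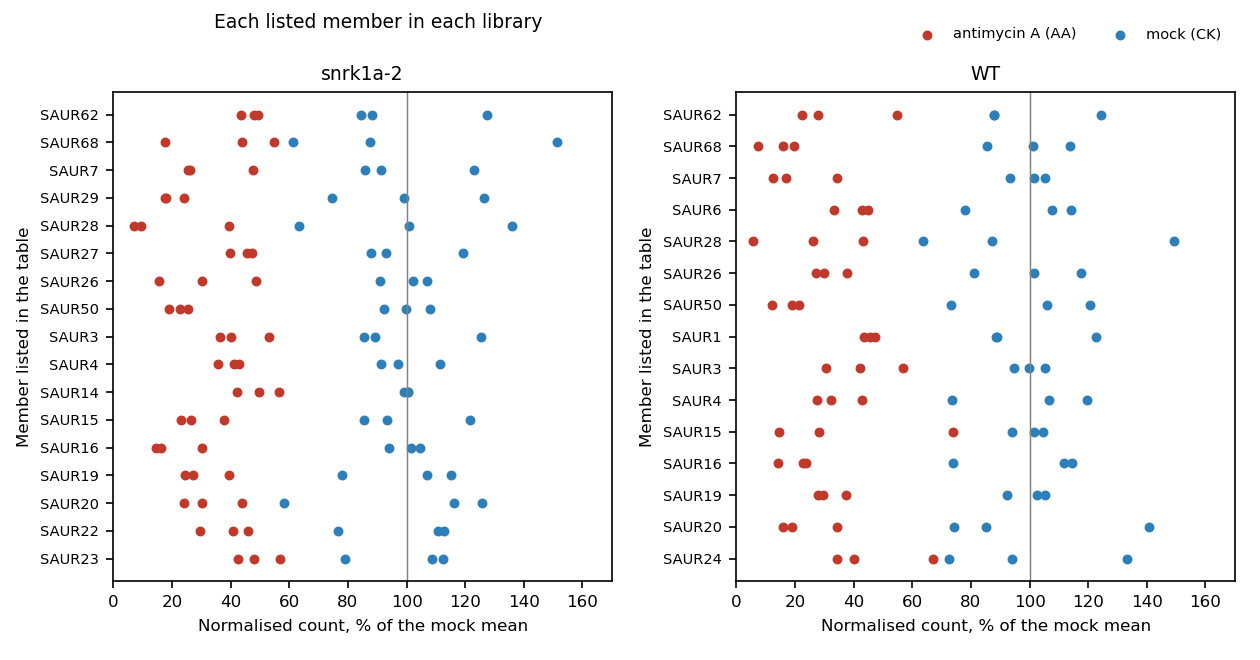
For each SAUR cluster gene listed in snrk1a-2 (left) and in WT (right), points give the normalised read count of each library as a percentage of the CK mean of that gene, in 3 AA and 3 CK libraries. The AA points of every gene lie left of its CK points. In both panels some genes have 1 AA library close to the CK points, such as SAUR68 and SAUR20 in snrk1a-2 and SAUR15 and SAUR24 in WT.

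The libraries did not contribute evenly. In snrk1a-2, CK replicate 2 was the highest CK library for 12 of 17 SAUR genes listed lower (70.6%), against 30.4% of all genes listed lower in that line. In WT, AA replicate 3 was the highest AA library for 10 of 15 (66.7%), against 47.1% of all genes listed lower, and CK replicate 2 the highest CK library for 9 of 15 (60%), against 31.7%. The part of single libraries in the calls is given by the refits. Of the SAUR genes listed lower, the limma refit called 16 of 17 in snrk1a-2 (94.1%, against 81.8% of all genes listed lower), 3 of 6 in jmj15-2 (50.0%, against 64.6%), 4 of 6 in crf6-2 (66.7%, against 65.7%), 2 of 3 in SnRK1aOX (66.7%, against 62.9%) and 12 of 15 in WT (80.0%, against 73.5%). These shares were near those of all genes listed lower, on counts of 3 to 17. Of all genes tested, the refit called 8.26% lower in snrk1a-2, 3.9% in jmj15-2, 5.06% in crf6-2, 2.31% in SnRK1aOX and 6.49% in WT. Calls that held in every fit without 1 library numbered 5 in snrk1a-2, 2 in jmj15-2, 3 in crf6-2, 1 in SnRK1aOX and 9 in WT. The like share of all genes listed lower is not given here, so these counts are not read as a trait of the SAUR genes. These refits were run on genes that the authors had already selected as changed.

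Whether the change with antimycin A differed between a line and WT was tested with an interaction term in limma, for genes listed in both tables. Of 22 tests on SAUR cluster genes, 0 passed an adjusted p of 0.05 by limma, and 3 had an unadjusted p under 0.05. Over all genes tested in the same way, the adjusted test called 0.0% in snrk1a-2, 2.24% in jmj15-2, 0.0% in crf6-2 and 0.131% in SnRK1aOX, and an unadjusted p under 0.05 was found for 7.54% in snrk1a-2, 14.2% in jmj15-2, 4.51% in crf6-2 and 9.67% in SnRK1aOX. Those 3 cases were SAUR50 in jmj15-2, SAUR50 in SnRK1aOX and SAUR16 in SnRK1aOX. For SAUR16 in SnRK1aOX the change minus that of WT was 1.21 ± 0.36, with a 95% interval from 0.43 to 1.98 (unadjusted p = 0.00529, adjusted p = 0.219) by limma. For SAUR50 it was 1.08 ± 0.38, with a 95% interval from 0.26 to 1.90 (unadjusted p = 0.0144, adjusted p = 0.359) in SnRK1aOX by limma. In jmj15-2 the difference of SAUR50 was 1.09 ± 0.37, with a 95% interval from 0.28 to 1.90 (unadjusted p = 0.0121, adjusted p = 0.172) by limma. A positive difference here means a smaller fall in the line than in WT, and 17 of 22 were positive. The share of positive differences among all genes tested is not given here, so this count describes the 22 pairs alone. All 22 differences share the WT libraries, so their directions are not independent of each other. Among the genes tested in snrk1a-2 was SAUR16, with a difference of -0.06 ± 0.43, with a 95% interval from -0.97 to 0.86 (unadjusted p = 0.898, adjusted p = 0.998) by limma, and SAUR68, with 1.39 ± 0.72, with a 95% interval from -0.14 to 2.93 (unadjusted p = 0.0723, adjusted p = 0.665) by limma. The wide intervals mean that neither likeness nor difference of the lines is shown for most genes, and genes listed in 1 table alone could not be tested.

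**Figure D5:**
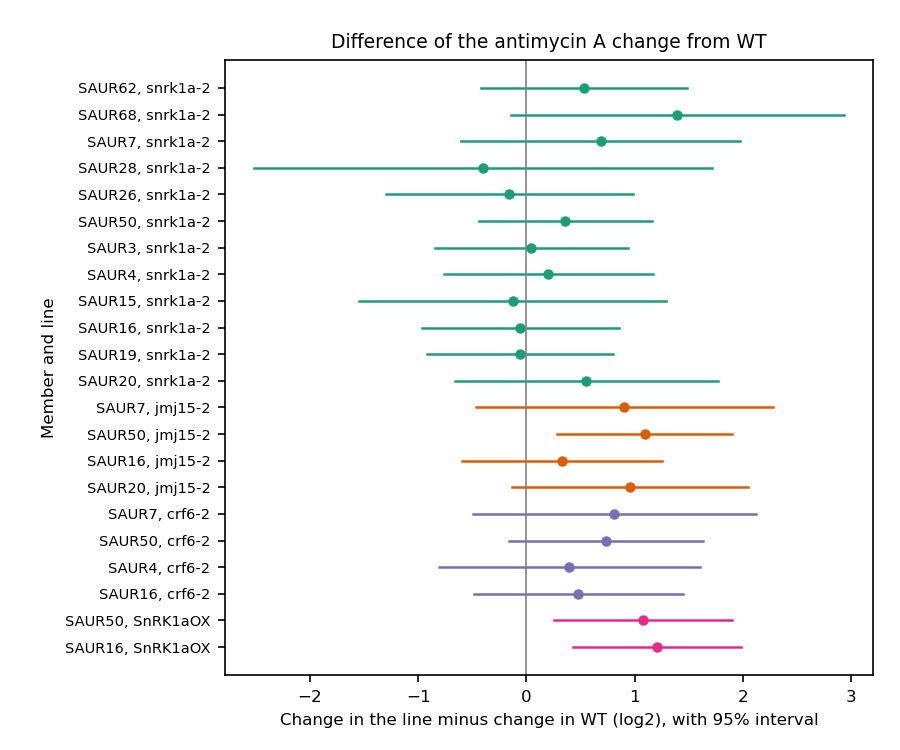
Each point is the change with antimycin A of 1 SAUR cluster gene in a line minus its change in WT (log2 units, horizontal axis), with its 95% interval, for the 22 gene and line pairs listed in both tables. Points right of 0 mark a smaller fall than in WT, and the intervals of SAUR50 in jmj15-2 and of SAUR50 and SAUR16 in SnRK1aOX do not reach 0 before adjustment.

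The 48 SAUR genes outside the clusters give the family for comparison. They were listed lower in 9 cases in snrk1a-2 (18.8%, against 10.1% of all genes), 10 in jmj15-2 (20.8%, against 6.04%) and 13 in crf6-2 (27.1%, against 7.71%). SnRK1aOX had 7 listed lower (14.6%, against 3.67%) and WT 16 (33.3%, against 8.84%). Cluster genes had a smaller share in jmj15-2 and crf6-2 (18.8% each) and SnRK1aOX (9.38%), and a larger one in snrk1a-2 (53.1%) and WT (46.9%). Listed higher were 2 of 48 in snrk1a-2 (against 7.17% of all genes), 2 in jmj15-2 (against 6.62%) and 1 in crf6-2 (against 6.97%). SnRK1aOX had 5 listed higher (against 5.55%) and WT 1 (against 5.83%). In all, 26 of the 48 stood in at least 1 table and 5 in every table, namely SAUR69, SAUR57, SAUR52, SAUR53 and SAUR51. SAUR57 had 37.02, 53.3 and 19.6 in snrk1a-2 AA libraries, against 254, 264 and 276 in snrk1a-2 CK libraries. Its counts were 35.5, 25.2 and 35.9 in WT AA libraries, against 249.9, 384 and 313 in WT CK libraries. It was low with antimycin A in every listed line, with log2 fold changes of -2.84 in snrk1a-2, -1.83 in jmj15-2, -1.88 in crf6-2, -1.48 in SnRK1aOX and -3.29 in WT in the authors' deposited tables. SAUR52 and SAUR53 had log2 fold changes of -1.63 in snrk1a-2, -2.53 in jmj15-2, -2.06 in crf6-2, -1.25 in SnRK1aOX and -2.17 in WT for SAUR52 and of -1.81 in snrk1a-2, -1.85 in jmj15-2, -1.29 in crf6-2, -1.08 in SnRK1aOX and -1.90 in WT for SAUR53 in the authors' deposited tables. Another, SAUR69, was listed at 0 in all AA libraries of snrk1a-2 and crf6-2, against 48.4, 20.8 and 34.8 in snrk1a-2 CK libraries and 20.4, 24.1 and 36.00 in crf6-2 CK libraries. In WT, however, CK replicate 2 was at 2.09 beside an AA library at 2.02, and in SnRK1aOX CK replicate 1 was at 4.19 beside 4.15. The refit of SAUR69 did not pass in WT (adjusted p = 0.128 by limma) or SnRK1aOX (0.289). Nor did that of SAUR53 in crf6-2 (0.0592) and SnRK1aOX (0.0599) or of SAUR52 in SnRK1aOX (0.085). These genes passed in their other lines. SAUR51, SAUR8 and SAUR9, relatives of SAUR50 with 78.0%, 83.3% and 71.6% identical residues, were looked at after their values had been seen. SAUR9 was listed higher in SnRK1aOX and in no other table, with a log2 fold change of 1.30 in the authors' deposited table. SAUR51 was listed lower in all 5 tables, at -1.88 in snrk1a-2, -1.30 in jmj15-2, -1.42 in crf6-2, -1.87 in SnRK1aOX and -1.57 in WT, and SAUR8 in 3, at -1.44 in snrk1a-2, -1.17 in jmj15-2 and -1.53 in WT, on the log2 scale in the authors' deposited tables.

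Upstream of the SAUR genes, the auxin pathway was listed unevenly. The share of all genes listed lower was 10.1% in snrk1a-2, 6.04% in jmj15-2, 7.71% in crf6-2, 3.67% in SnRK1aOX and 8.84% in WT. Of 6 auxin receptors, AFB1 (named GRH1 in the annotation) was listed lower in snrk1a-2, jmj15-2 and WT, at -1.62 in snrk1a-2, -1.33 in jmj15-2 and -1.17 in WT on the log2 scale of the authors' deposited tables, and 0 were listed in crf6-2 and SnRK1aOX. Of 5 activating auxin response factors, ARF8 was listed lower in snrk1a-2 and jmj15-2, at -1.10 in snrk1a-2 and -1.03 in jmj15-2 in the authors' deposited tables. Of 14 Aux/IAA repressors, which are themselves auxin-induced, IAA6 was listed lower in all 5 lines (7.14% of the 14), and the other 13 in none. The GH3 enzymes, which conjugate auxin to amino acids and are also auxin-induced, were listed in the opposite direction. Those listed higher were 3 of 7 in snrk1a-2 (against 7.17% of all genes) and 4 in jmj15-2 (against 6.62%). In crf6-2 there were 3 (against 6.97%), in SnRK1aOX 3 (against 5.55%) and in WT 3 (against 5.83%). GH3.3, GH3.2 (BRU6 in the annotation) and GH3.5 (WES1) were listed higher in all 5 tables. For GH3.5 the log2 fold changes were 1.27 in snrk1a-2, 1.61 in jmj15-2, 1.90 in crf6-2, 1.83 in SnRK1aOX and 1.44 in WT in the authors' deposited tables. SAUR cluster genes and IAA6 were listed lower while GH3 genes were listed higher in the same libraries.

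The genes of auxin synthesis and transport that were listed were all listed lower. Of 8 synthesis genes, 3 were listed lower in snrk1a-2 (37.5%, against 10.1% of all genes), 2 in jmj15-2 (25.0%, against 6.04%), 2 in crf6-2 (25.0%, against 7.71%), 1 in SnRK1aOX (12.5%, against 3.67%) and 1 in WT (12.5%, against 8.84%), and the rest were unlisted. The flavin monooxygenase gene YUC6 had log2 fold changes of -1.40 in snrk1a-2, -1.39 in jmj15-2, -1.72 in crf6-2 and -1.93 in WT in the authors' deposited tables. TAA1, which makes the substrate of YUC enzymes, was listed lower in the 4 lines other than WT, at -1.16 in snrk1a-2, -1.03 in jmj15-2, -1.19 in crf6-2 and -1.28 in SnRK1aOX in the authors' deposited tables. Of 7 transport genes, 4 were listed lower in snrk1a-2 (57.1%, against 10.1% of all genes) and 2 in jmj15-2 (28.6%, against 6.04%). The count was 1 in crf6-2 (14.3%, against 7.71%), 1 in SnRK1aOX (14.3%, against 3.67%) and 3 in WT (42.9%, against 8.84%). The rest were unlisted. The influx carrier gene LAX3 was in all 5 tables, at -1.82 in snrk1a-2, -1.86 in jmj15-2, -2.13 in crf6-2, -1.16 in SnRK1aOX and -2.21 in WT in the authors' deposited tables, and AUX1, another influx carrier gene, at -1.06 in snrk1a-2, -1.14 in jmj15-2 and -1.13 in WT in the authors' deposited tables. Downstream, the targets of SAUR proteins were mostly unlisted. Listed higher were 7.17% of all genes in snrk1a-2, 6.62% in jmj15-2, 6.97% in crf6-2, 5.55% in SnRK1aOX and 5.83% in WT. Of 9 PP2C.D phosphatase genes, AT5G66080 was listed higher in snrk1a-2, at 1.03, and AT4G33920 higher in jmj15-2, at 1.13, in the authors' deposited tables, and 0 were listed in the other lines. Of 10 plasma membrane proton ATPase genes, AHA9 was listed higher in snrk1a-2, at 1.79 in the authors' deposited table, and 0 elsewhere. Among 7 transcription factors known to act on SAUR genes, PIF7 was listed higher in snrk1a-2, crf6-2 and SnRK1aOX, at 1.54 in snrk1a-2, 1.32 in crf6-2 and 1.14 in SnRK1aOX, and PIF5 (PIL6 in the annotation) higher in WT, at 1.27, in the authors' deposited tables. HBI1, a growth-promoting factor, was listed lower in snrk1a-2, at -1.17 in the authors' deposited table.

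Markers of root tissues were also listed lower with antimycin A. Of 6 root markers, 6 were listed lower in snrk1a-2 (100%, against 10.1% of all genes) and 3 in jmj15-2 (50.0%, against 6.04%). The count was 5 in crf6-2 (83.3%, against 7.71%), 3 in SnRK1aOX (50.0%, against 3.67%) and 5 in WT (83.3%, against 8.84%). None was listed higher. Sums over these listed markers alone, whose direction the listing fixes, describe the size of the change and test nothing. The summed normalised read counts were 705 to 843 in snrk1a-2 AA libraries, against 2206 to 3057 in snrk1a-2 CK libraries. They were 122 to 243 in jmj15-2 AA libraries and 468 to 992 in jmj15-2 CK libraries. In crf6-2 the sums were 394 to 437 in AA libraries and 1409.8 to 2059.7 in CK libraries. The 6 markers are CASP1, CASP2, CASP4, PER64, COBL9 and PIN2, so Casparian strip genes and PER64 make up most of the list by choice. PIN2 is also counted among the auxin transport genes. In SnRK1aOX the sums were 172 to 425 in AA libraries and 390.5 to 1228 in CK libraries. In WT they were 461 to 506 in AA libraries and 1246 to 2180.2 in CK libraries. Of 6 green shoot markers, LHCB2.1 was listed higher in SnRK1aOX and 0 in the other lines, and the shoot meristem gene STM was listed lower in snrk1a-2. Unlisted markers have no values here, and the tissue makeup of the seedlings cannot be read from these markers. The part of root tissue in the SAUR changes was not tested.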

How the data were processed

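RNA of whole seedlings was measured by sequencing in 30 libraries, 3 per group, grouped by the sample titles. Reads were aligned with Bowtie 0.12.2 to build TAIR10, per the submitters' processing notes, and no counter, normaliser or test is named in the sources used here. The authors deposited 1 table per line with a signal per library, called a normalised read count here. How it was adjusted is not described, and the values are not whole reads scaled by 1 factor per library: 1174 of 97692 lie above rounding error and under 0.5, and values under 1e-09 are given as 0. Each table also holds the authors' log2 fold change, p-value and q-value for genes that pass a q below 0.05 and a log2 fold change above 1 in size, and the WT and jmj15-2 tables also give the authors' −log10 of the q-value. Columns named kin10-2 and KIN10V17 were taken as snrk1a-2 and SnRK1aOX, since SnRK1a is also called KIN10 and the second name shows no allele of a mutant, an assignment that the labels do not state. The number of genes the authors tested was derived from q, p and rank, and is 23728 to 23834 per line. Depth per library is unknown.

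The 32 genes and all gene lists were chosen with earlier results of these data known. Calls are the authors'. A refit used limma 3.58.1 (R 4.3.3) on log2(value + 1) with trend, two-sided, within each table, with Benjamini-Hochberg adjustment counted over the genes the authors tested. The added 1 understates changes of low genes. Differences from WT were tested as interactions over genes listed in both tables and adjusted over those genes. The scripts were tested on simulated data. Alternatives were other pseudocounts, a minimum mean value, no trend, the replicate number as a block, each library left out, stricter thresholds of the authors' call and near-identical copies counted as 1. Values per library are given for genes listed in at least 4 tables and, in other clusters, for the gene listed in most tables, with ties going to the highest mean value. Those of the cluster genes SAUR1, SAUR6, SAUR12, SAUR15, SAUR28, SAUR29, SAUR49 and SAUR61 are given outside this rule, with their values known. Genes whose direction differed between tables, or that passed the test of the difference from WT, were also to be named. Of each other list, up to 4 genes listed in most tables are named, with ties going to the largest fold change in WT. Replicate numbers were not used to pair libraries.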

Additional observations from a re-analysis of the deposited data

Results flagged for a closer look

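SAUR17 (AT4G09530), outside the clusters, was listed in opposite directions in 2 lines. Its normalised read counts were 6.39, 0.219 and 5.69 in snrk1a-2 AA libraries, against 0 in all 3 snrk1a-2 CK libraries. They were listed at 0 in all 3 crf6-2 AA libraries, against 1.93, 5.62 and 5.4 in crf6-2 CK libraries. The change on the log2(value + 1) scale was 1.97 ± 0.82 in snrk1a-2 (adjusted p = 0.232 by limma) and -2.32 ± 0.56 in crf6-2 (adjusted p = 0.0332 by limma). The AA values were above the CK values in snrk1a-2 and below them in crf6-2, but all levels were near 0, and AA replicate 2 of snrk1a-2 was at 0.219. The change in snrk1a-2 did not pass, and the difference between the lines was not tested.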

How the results depend on the processing

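At an absolute log2 fold change over 1.5 in the authors' deposited tables, counts of SAUR cluster genes listed lower were 9 of 17 in snrk1a-2 and 2 of 6 in jmj15-2. They were 4 of 6 in crf6-2, 0 of 3 in SnRK1aOX and 10 of 15 in WT. Fewer genes reach this limit by construction, and the share of all genes that reach it is not given here. A stricter q and near-identical copies counted as 1 moved no such count by over 1.5 times. Without trend the limma refit called 5 genes instead of 3 in jmj15-2, gaining SAUR20 and SAUR29 (adjusted p of 0.0324 and 0.0111 by limma), and in crf6-2 it gained SAUR7 (0.035) and lost SAUR12 (0.0597), and the cause was not tested. With 1 library left out, the refit called 6 to 13 genes in snrk1a-2 (9 without AA replicate 1, 7 without CK replicate 2 and 6 without CK replicate 3, of 16), 2 to 3 in jmj15-2, 3 to 4 in crf6-2, 1 to 2 in SnRK1aOX and 9 to 13 in WT. In SnRK1aOX the count was 1 without AA replicate 1, 2 or 3 or CK replicate 1 or 3. For single genes these fits ended 64 calls and made 4, and the like share among all listed genes is not given here. No change with antimycin A turned its direction. For the 47 listings whose AA and CK libraries do not overlap, that outcome was fixed in advance and tests nothing. Over the listed genes, same-numbered libraries did not deviate together (correlations from -0.315 to 0.0969). The labels state no pairing, and these correlations cannot show whether same-numbered samples were grown or handled together. With the replicate block the refit called 1 gene in SnRK1aOX instead of 2 and ended 4 calls of single genes, SAUR3 in WT, SAUR27 in snrk1a-2, SAUR12 in jmj15-2 and SAUR16 in SnRK1aOX (adjusted p of 0.0502, 0.0562, 0.0563 and 0.0962 by limma). Differences from WT passed for 0 genes in every alternative. Those of snrk1a-2 that turned direction when 1 library was left out had ranges of -0.38 to 0.15 for SAUR16, -0.26 to 0.084 for SAUR19, -0.66 to 0.48 for SAUR15, -0.54 to 0.27 for SAUR26, -0.18 to 0.26 for SAUR3 and -1.15 to 0.15 for SAUR28. Depth is unknown, so no limit from counting can be given, and unlisted genes have no values.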

Other observations

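Several SAUR genes outside the clusters were listed as higher with antimycin A, and were picked for description after their values had been seen. SAUR36, known as a promoter of leaf senescence, had 2027, 2216 and 2067 normalised read counts in snrk1a-2 AA libraries, against 868, 1001 and 1166 in snrk1a-2 CK libraries. The groups did not overlap, and the limma change was 1.06 ± 0.17 (adjusted p = 0.0018 by limma). SAUR55 was listed higher in 3 lines, with limma changes of 1.83 ± 0.24 in jmj15-2, 1.11 ± 0.20 in SnRK1aOX and 1.08 ± 0.22 in WT. SAUR25, the nearest relative in sequence of the cluster gene SAUR15, had 68.0, 62.7 and 62.8 in crf6-2 AA libraries, against 21.4, 32.8 and 15.8 in crf6-2 CK libraries. It had 43.9, 80.6 and 56.4 in SnRK1aOX AA libraries, against 18.5, 13.95 and 19.1 in SnRK1aOX CK libraries. SAUR25 and SAUR15 thus stood in the tables with opposite signs, but in different lines, since SAUR15 was listed lower in snrk1a-2 and WT. SAUR43 was higher in jmj15-2 and SnRK1aOX, with means of 48.2 ± 24.2 in jmj15-2 AA libraries and 4.17 ± 5.44 in jmj15-2 CK libraries, and of 44.8 ± 11.7 in SnRK1aOX AA libraries and 3.90 ± 3.35 in SnRK1aOX CK libraries (SD, n = 3 each).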
